A study of Mus musculus with 15 samples.

Results

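JMJD1A (gene symbol Kdm3a) is a histone demethylase that removes methyl groups from lysine 9 of histone H3 and needs iron at its catalytic centre. JMJD1A(H1122A) carries a substitution at the iron-coordination site. The 6 libraries described here, of 15 in the whole series, compared JMJD1A-KD 3T3-L1 cells that expressed JMJD1A(H1122A) (3 libraries) with JMJD1A-KD cells that expressed LacZ, a bacterial beta-galactosidase without a role in mammalian chromatin (3 libraries). They were taken by their sample titles and all were collected on day 2 of differentiation. 3T3-L1 cells are mouse preadipocytes, which become adipocytes when given insulin, dexamethasone and IBMX, and both groups received this cocktail. Both groups also carried the sh-Jmjd1a retrovirus, and the second retrovirus supplied LacZ or a JMJD1A that the shRNA does not recognise. The remaining 9 libraries were 3 of JMJD1A(WT) in the same knockdown cells, 3 of sh-Jmjd1a cells and 3 of sh-Empty cells. Each line was a pool of infected cells selected with an antibiotic, so a difference between infected pools and an effect of the expressed protein cannot be told apart. The labels do not say whether the replicates were separate cultures, and p-values therefore measure only the spread between these libraries, which may be technical.

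Methylation of lysine 9 on histone H3 marks repressed chromatin, and its removal accompanies activation of tissue genes. In 3T3-L1 cells the cocktail first switches on immediate early genes and C/EBP factors, and these bring up PPARγ and C/EBPα. PPARγ and C/EBPα in turn switch on genes for lipid droplets, fatty acid uptake and secreted adipocyte proteins, while the preadipocyte matrix is rebuilt around the cells. The comparison asks what a JMJD1A protein with a defective iron site does to this programme when it is present in excess in knockdown cells.

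Total counts were 14104133 to 15046646 per library in the LacZ group and 11738534 to 13874024 in the JMJD1A(H1122A) group. Replicates of one group differed from each other by more than counting noise, and the common biological coefficient of variation was only 4.72%. The 7 adipocyte markers summed to 3352 to 3440 CPM (a gene's counts scaled to the size of its library) with LacZ and to 2573 to 2669 CPM with JMJD1A(H1122A). The 7 preadipocyte or fibroblast markers summed to 14620 to 14820 CPM and to 15410 to 16250 CPM. Abundant genes dominate these sums. Lpl averaged 2908 CPM with LacZ in the first set, and Col1a2 averaged 7087 CPM in the second. Each of the 7 adipocyte markers was also lower by itself, but Dlk1 in the second set went against its sum (log2 fold change -0.53). In bulk samples, fewer differentiating cells and less RNA per cell cannot be told apart. Markers of other tissues were near or at 0. The macrophage markers Ptprc and Adgre1 and all 4 muscle markers had 0 counts in all 6 libraries, and the summed leukocyte markers stayed at 2.64 CPM or less.

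The transgene itself was the largest change. Kdm3a was at 122, 116 and 118 CPM in the LacZ libraries and at 2288, 2199 and 2103 CPM in the JMJD1A(H1122A) libraries. The groups were far apart (log2 fold change 4.21 ± 0.04 (SE), adjusted p = 1.60e-48). JMJD1A(WT) cells reached 1690 ± 69.01 (SD, n = 3) CPM, so the mutant transcript was the more abundant by 0.38 log2 units (adjusted p = 3.94e-12). Gene counts cannot separate construct reads from endogenous Kdm3a reads. In the separate knockdown set, Kdm3a was at 176.5 ± 7.31 (SD, n = 3) CPM in sh-Empty cells and 131.7 ± 5.77 (SD, n = 3) CPM in sh-Jmjd1a cells. The knockdown thus lowered Kdm3a RNA only in part (log2 fold change -0.42 ± 0.05 (SE), adjusted p = 2.91e-08).

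Across the transcriptome, 12557 genes were tested by edgeR's quasi-likelihood method. JMJD1A(H1122A) lowered 560 of them (4.46%) and raised 600 (4.78%) relative to LacZ, at Benjamini-Hochberg adjusted p-values under 0.05. Most changes were small. The median log2 fold change was -0.26 among the genes called lower, 0.25 among those called higher and 0.00052 over all genes, and 39 genes fell and 14 rose by at least 1 on the log2 scale. Of the 1160 genes called, 1130 had groups that did not overlap, a pattern that 25.1% of all tested genes showed. Leaving out JMJD1A(H1122A) replicate 1 reduced the genes called lower to 326 and those called higher to 348, and leaving out LacZ replicate 3 reduced those called higher to 380.

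**Figure D1:**
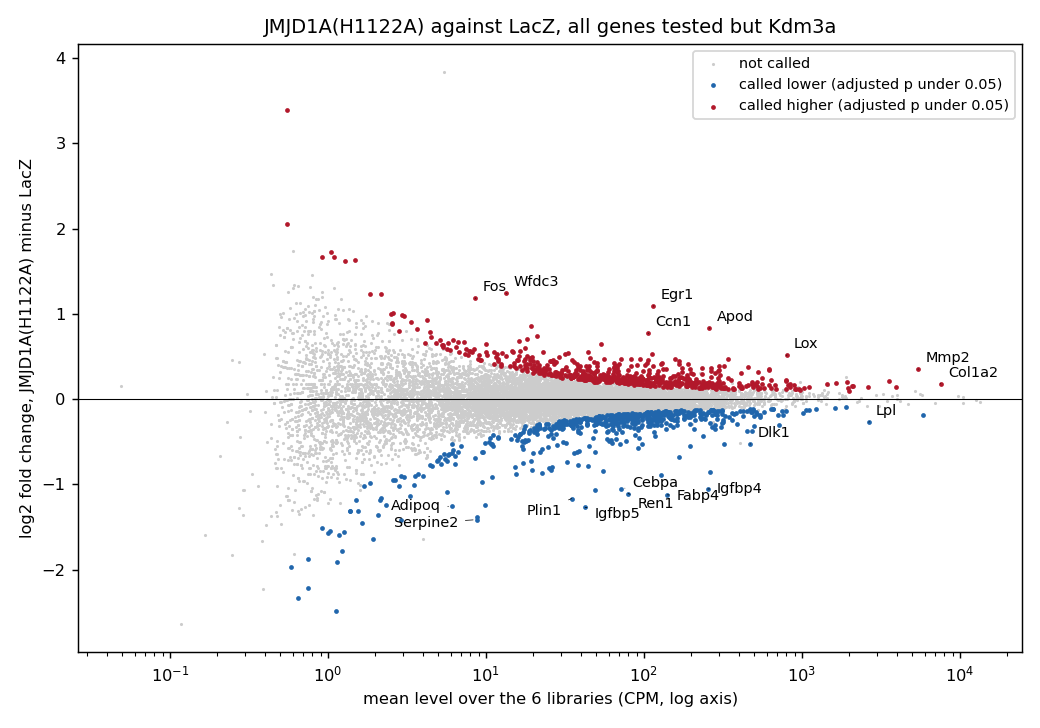
Log2 fold change (JMJD1A(H1122A) minus LacZ, vertical axis) against the mean level over the 6 libraries (CPM, log axis) for each tested gene other than Kdm3a, with called genes in blue (560 lower) and red (599 higher). Adipocyte genes such as Fabp4, Plin1 and Cebpa lie near -1, Egr1, Fos and Wfdc3 lie near 1, and the large changes at the left edge belong to genes below a few CPM.

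The knockdown set shares no library with these 6 and gave a separate view of the same genes. In sh-Jmjd1a against sh-Empty cells, 23.9% of 12272 tested genes were lower and 22.3% were higher. Of the 559 genes called lower with JMJD1A(H1122A) that were tested there, 329 were lower and 80 higher in sh-Jmjd1a cells. Of the 596 genes called higher, leaving out Kdm3a, 78 were lower and 336 higher. Against LacZ, JMJD1A(WT) lowered 4.52% of tested genes and raised 4.98%, and between both JMJD1A proteins 11.7% were lower and 12.1% higher with JMJD1A(H1122A) than with JMJD1A(WT). Since these 2 comparisons share libraries with the main one, their values are given only side by side, gene by gene.

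Most transcription factors of adipogenesis were not called, but Cebpa and Pparg, the late regulators, fell. Of 24 tested factors, 4 were lower (16.7%) and 1 was higher, with a list median of -0.04. Cebpa encodes C/EBPα, a factor that maintains the adipocyte state. Its level was 101, 92.8 and 97.2 CPM with LacZ and 45.3, 43.5 and 52.1 CPM with JMJD1A(H1122A). The groups stood well apart (log2 fold change -1.05 ± 0.06 (SE), adjusted p = 1.19e-17). Pparg, the gene of the adipocyte master regulator PPARγ, was at 75.8, 69.8 and 71.8 CPM and at 50.3, 54.97 and 50.04 CPM. This smaller fall left no overlap (log2 fold change -0.48 ± 0.06 (SE), adjusted p = 2.46e-07). Ppargc1b, a coactivator of nuclear receptors that promotes mitochondrial genes, was scarce, at 3.60, 4.88 and 5.09 CPM and at 1.88, 1.31 and 3.08 CPM (log2 fold change -1.14 ± 0.27 (SE), adjusted p = 0.00342), and the call was lost without JMJD1A(H1122A) replicate 2 (adjusted p = 0.0619). Nfia, a factor of the brown fat lineage, changed by -0.24, and Stat5a, which transmits growth hormone signals, rose by 0.16.

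The early factors of the cascade were not called with all 6 libraries. Cebpd, induced by dexamethasone, was at 498, 491 and 512 CPM with LacZ and 537, 511 and 618 CPM with the mutant (adjusted p = 0.111), and was called higher without JMJD1A(H1122A) replicate 2 (adjusted p = 0.00473). Cebpb, an early factor that precedes Cebpa, spread widely in the LacZ libraries, at 344, 526 and 565 CPM against 292, 334 and 374 CPM with the mutant. Its groups overlapped and its log2 fold change of -0.52 ± 0.20 (SE) had an adjusted p of 0.21, but it was called lower without LacZ replicate 1 (-0.71, adjusted p = 0.0304). Srebf1, the lipogenic factor SREBP-1, was at 172, 159 and 165 CPM and 167, 159.9 and 175 CPM, and Rxra, the partner of PPARγ, had a log2 fold change of 0.06 (adjusted p = 0.296).

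In the other lines the late factors took other levels. Cebpa was at 170.4 ± 4.61 (SD, n = 3) CPM with JMJD1A(WT), above LacZ by 0.81 (adjusted p = 8.00e-17), and upon knockdown fell by 1.35 on the log2 scale. Pparg was at 93.3 ± 4.87 (SD, n = 3) CPM with JMJD1A(WT), 0.36 above LacZ (adjusted p = 7.62e-06). The order of group means for both genes was therefore mutant, LacZ and wild type from low to high, and each neighbouring pair passed the test.

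The clearest loss was among genes for fatty acid uptake, triglyceride synthesis and the lipid droplet. Of 25 tested members of a list of 33, 17 were lower (68.0%) and 0 were higher, with a list median of -0.39. All but Dgat1 were still called whichever library was left out. Plin1 encodes perilipin 1, the coat protein of the adipocyte lipid droplet, and was at 49.6, 46.4 and 48.8 CPM with LacZ and 23.1, 19.6 and 21.9 CPM with JMJD1A(H1122A). Fabp4, the adipocyte fatty acid binding protein, was at 191, 187 and 202 CPM and 84.5, 85.7 and 96.5 CPM. Fabp4 lay highest in LacZ replicate 3 and lowest in JMJD1A(H1122A) replicate 1. Both genes fell, Plin1 with a log2 fold change -1.17 ± 0.08 (SE), adjusted p = 5.87e-15 and Fabp4 with a log2 fold change -1.12 ± 0.05 (SE), adjusted p = 3.12e-19. Cd36, a fatty acid transporter of the cell surface, was at 69.2, 66.1 and 64.3 CPM and 34.1, 31.3 and 30.1 CPM (log2 fold change -1.06 ± 0.07 (SE), adjusted p = 4.30e-15). Cidec, which fuses droplets, was at 29.5, 27.5 and 31.1 CPM and 14.9, 15.97 and 17.4 CPM (log2 fold change -0.87 ± 0.09 (SE), adjusted p = 3.74e-09). None of these 4 genes overlapped between groups.

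Enzymes along the triglyceride pathway fell at several steps. Acsl1, which activates fatty acids with coenzyme A, was at 353, 332 and 333 CPM with LacZ and 189.6, 194 and 179 CPM with the mutant (log2 fold change -0.85 ± 0.05 (SE), adjusted p = 1.18e-17). The acyltransferases Gpam, Agpat2, Dgat2 and Dgat1, which add the acyl chains of glycerolipids, changed by -0.39, -0.62, -0.83 and -0.18. Of these, Dgat1 was only just past the threshold (adjusted p = 0.0441). The lipases Lipe and Pnpla2, which release fatty acids from stored fat, fell by 0.28 and 0.29 on the log2 scale. Lpl, the lipoprotein lipase and the most abundant gene of the list, fell from 2865, 2911 and 2947 CPM to 2459, 2439 and 2333 CPM, a small change for its level (log2 fold change -0.27 ± 0.03 (SE), adjusted p = 4.91e-08). The fatty acid binding protein Fabp5 and the droplet proteins Plin4, Fitm2 and Plin2 changed by -0.55, -0.47, -0.31 and -0.21. Tmem120a, a nuclear envelope protein needed for fat cell differentiation, changed by -0.27.

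Other members of the same pathway did not pass the test. Lpin1, whose product makes diacylglycerol, was at 66.98, 62.7 and 61.7 CPM and 59.6, 58.5 and 52.3 CPM (adjusted p = 0.126). Gpd1, the source of glycerol 3-phosphate, was at 2.47, 4.88 and 3.89 CPM and 2.74, 1.82 and 3.08 CPM (adjusted p = 0.215). Abhd5, a coactivator of lipolysis, and Agpat3 had log2 fold changes of -0.06 and 0.12.

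**Figure D2:**
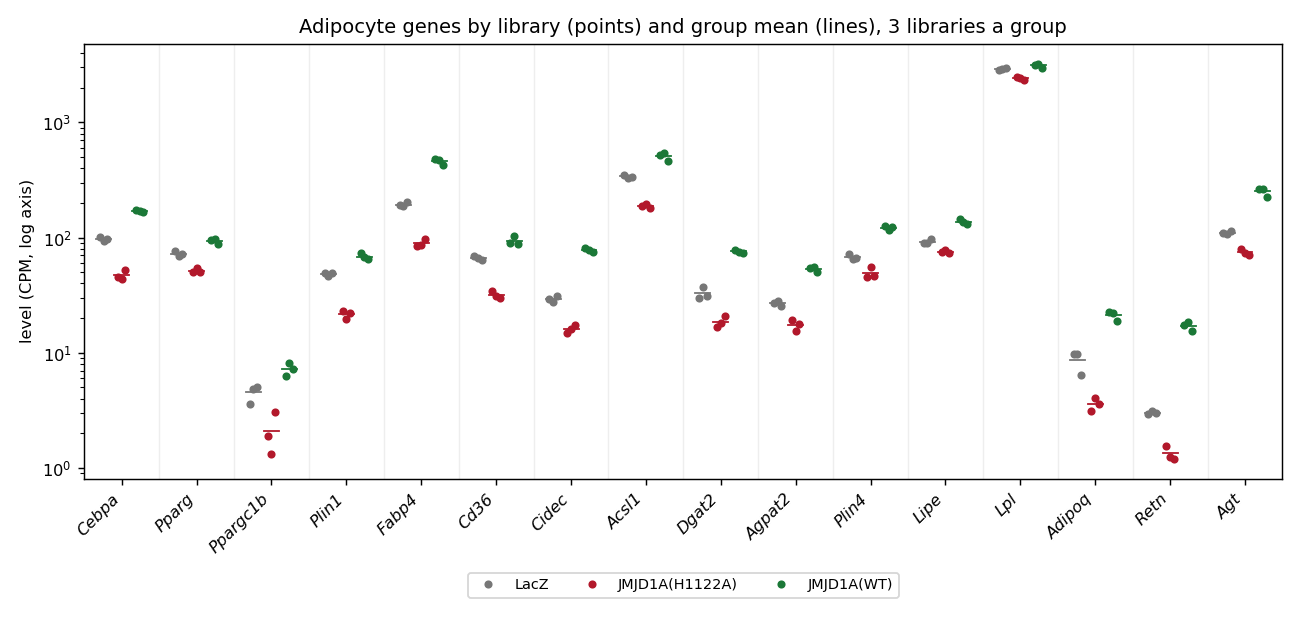
Levels (CPM, log axis) of 16 adipocyte genes in each library of LacZ (grey), JMJD1A(H1122A) (red) and JMJD1A(WT) (green) cells, with a line at the mean of the 3 libraries. The red points lie below the grey points for every gene shown, and the green points lie above the grey points in the mean, from 2908 to 3122 CPM for Lpl and from 194 to 461 CPM for Fabp4.

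The lipid genes differed from LacZ in the opposite direction with JMJD1A(WT) in most of the named cases. Fabp4 was at 461 ± 29.99 (SD, n = 3) CPM with JMJD1A(WT), 1.25 above LacZ on the log2 scale (adjusted p = 4.30e-23). Cidec was at 77.9 ± 3.37 (SD, n = 3) CPM and Dgat2 at 75.8 ± 2.19 (SD, n = 3) CPM, 1.40 and 1.20 above LacZ. Gpam was an exception, at 41.96 ± 4.02 (SD, n = 3) CPM with JMJD1A(WT) and a log2 fold change of -0.08 against LacZ (adjusted p = 0.634). In the separate knockdown libraries, 16 of the 17 members called lower with the mutant were also lower upon knockdown. The one that was not was Plin2, with a log2 fold change of 0.04 (adjusted p = 0.519). There, 23.9% of all tested genes were lower, as were 329 of the 559 genes called lower with the mutant.

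Several genes of secreted adipocyte proteins fell. Of 18 tested members, 9 were lower (50.0%) and 1 was higher, with a list median of -0.29. Adipoq encodes adiponectin, the hormone typical of adipocytes, and was at 9.80, 9.70 and 6.43 CPM with LacZ and 3.13, 4.08 and 3.60 CPM with JMJD1A(H1122A). LacZ replicate 3 was the lowest of its group but still above all mutant libraries (log2 fold change -1.26 ± 0.20 (SE), adjusted p = 1.30e-05). Agt, the angiotensin precursor, was at 109, 108 and 113 CPM and 78.9, 72.8 and 71.03 CPM (log2 fold change -0.57 ± 0.06 (SE), adjusted p = 2.13e-09). Resistin (Retn) and chemerin (Rarres2) were barely expressed on day 2. Retn was at 2.93, 3.12 and 2.97 CPM and 1.57, 1.24 and 1.20 CPM (log2 fold change -1.16 ± 0.30 (SE), adjusted p = 0.00924). Rarres2 was at 1.40, 2.34 and 1.70 CPM and 0.313, 0.583 and 0.514 CPM (log2 fold change -1.92 ± 0.46 (SE), adjusted p = 0.00423), and its receptor gene Cmklr1 fell as well, by 1.59 on the log2 scale from a mean of 1.75 CPM. Serpina3n, Apln, Adipor2 and C3, which encode a serpin, apelin, an adiponectin receptor and a complement factor, changed by -0.83, -0.29, -0.28 and -0.19. Metrnl, a secreted factor of the meteorin family, was the member that rose, by 0.32. Angptl4, an inhibitor of lipoprotein lipase and a PPAR target, was at 355, 354 and 359.7 CPM and 327, 326 and 349 CPM and was not called (adjusted p = 0.141).

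Genes of lipid synthesis from carbohydrate were called in both directions. Of 18 tested genes of fatty acid synthesis and desaturation, 2 were lower and 2 were higher (11.1% each), with a list median of -0.05. Fasn, the fatty acid synthase, was at 858, 714 and 755 CPM with LacZ and 868, 826 and 827 CPM with the mutant, and its groups overlapped (adjusted p = 0.226). Without LacZ replicate 1, its highest LacZ library, Fasn was called higher (0.19, adjusted p = 4.09e-04). The desaturase Scd1 was at 189.6, 189 and 198 CPM and 184, 182 and 167 CPM (adjusted p = 0.183), and Scd2 had a log2 fold change of 0.05. The elongase Elovl6 and pyruvate carboxylase Pcx changed by -0.18 and -0.12, and the elongase Elovl5 and the desaturase Fads3 by 0.19 and 0.24. With single libraries left out, 0 to 1 members were lower and 1 to 2 higher. The contrast with the droplet list was not tested.

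Some cholesterol genes fell. Of 23 tested members, 6 were lower (26.1%) and 1 was higher, with a list median of -0.06, and 1 to 5 were lower when single libraries were left out, fewest without JMJD1A(H1122A) replicate 1. Cyp51, the lanosterol demethylase, was at 67.8, 65.6 and 64.6 CPM and 46.98, 55.99 and 57.1 CPM (log2 fold change -0.31 ± 0.07 (SE), adjusted p = 0.00161). Sqle, Insig1 and Hsd17b7 changed by -0.31, -0.28 and -0.23. Dhcr7, the enzyme of the last step, rose instead, from 26.8, 29.2 and 32.5 CPM to 38.8, 41.5 and 41.04 CPM (log2 fold change 0.46 ± 0.08 (SE), adjusted p = 9.35e-05). Srebf2, the transcription factor of the pathway, had a log2 fold change of 0.06 and was not called.

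Most genes of fatty acid oxidation and of the citric acid cycle were not called, 23 of 25 and 17 of 21. Fatty acid oxidation had 2 lower (8.0%) and 0 higher of 25 tested members, beside 4.46% lower among all genes. Etfb, a subunit of the electron transfer flavoprotein, changed by -0.15, near the threshold (adjusted p = 0.0473), and kept its call only without LacZ replicate 1 when single libraries were left out. The citric acid cycle had 3 lower (14.3%) and 1 higher of 21. With single libraries left out, 0 to 1 oxidation members and 1 to 4 cycle members were lower. Idh3a, a subunit of the NAD-dependent isocitrate dehydrogenase, was at 119, 121 and 124 CPM and 98.03, 104 and 91.5 CPM (log2 fold change -0.31 ± 0.05 (SE), adjusted p = 5.82e-05). Idh2, the NADP-dependent enzyme of the same reaction, went the other way, from 208, 213 and 212 CPM to 256, 262 and 257 CPM (log2 fold change 0.29 ± 0.04 (SE), adjusted p = 9.20e-07).

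**Figure D3:**
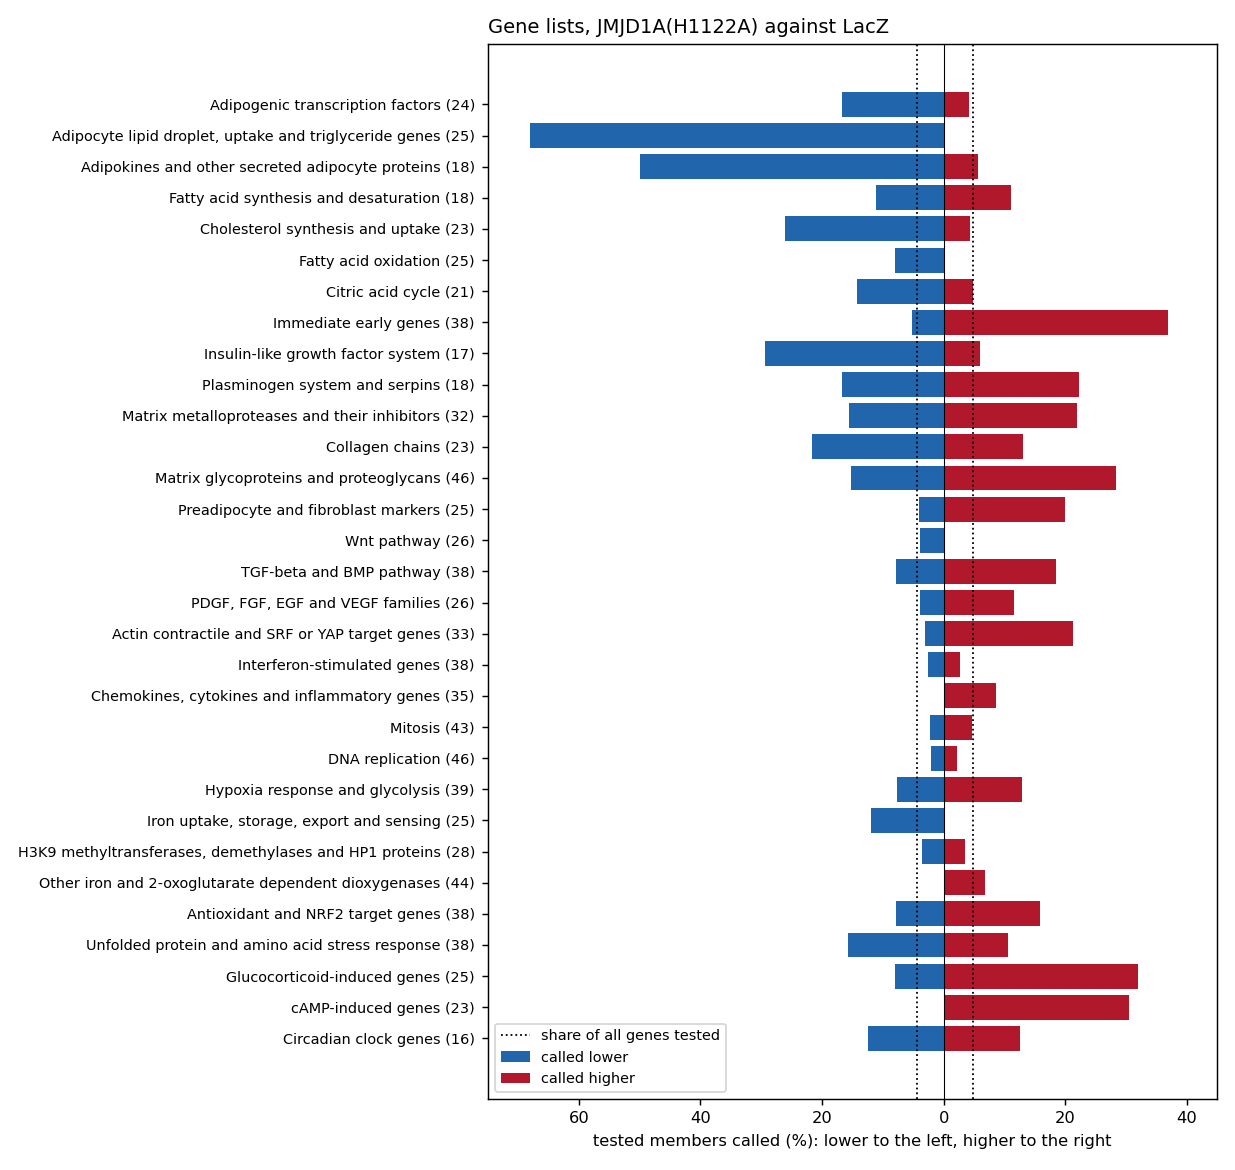
Share of the tested members of each gene list called lower (blue, to the left) or higher (red, to the right) with JMJD1A(H1122A) than with LacZ, with the number of tested members in parentheses and dotted lines at the share of all genes (4.46% lower and 4.78% higher). Droplet and triglyceride genes reach 68.0% to the left and immediate early genes 36.8% to the right.

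Some immediate early genes rose, among them Fos and Egr1. These genes answer growth factors, serum, cAMP and stress within minutes and need no new protein synthesis, and IBMX in the cocktail raises cAMP. Of 38 tested members, 14 were higher (36.8%) and 2 were lower, with a list median of 0.08, and 12 to 14 were higher when single libraries were left out. In the separate knockdown libraries all 14 were called higher upon knockdown. There, 22.3% of all tested genes were higher, as were 336 of the 596 genes called higher with the mutant. Fos, a subunit of the AP-1 factor, was at 5.87, 5.59 and 4.24 CPM with LacZ and 11.98, 10.9 and 13.02 CPM with JMJD1A(H1122A). All mutant libraries lay above all LacZ libraries (log2 fold change 1.18 ± 0.16 (SE), adjusted p = 5.35e-07). Egr1, a zinc finger factor of the early growth response, was at 75.4, 67.6 and 77.8 CPM and 158, 151 and 161 CPM (log2 fold change 1.09 ± 0.05 (SE), adjusted p = 2.02e-20). Ccn1, a secreted matrix protein and target of the actin-controlled factors SRF and YAP, was at 75.6, 82.3 and 78.9 CPM and 139, 135 and 130.2 CPM (log2 fold change 0.77 ± 0.05 (SE), adjusted p = 4.30e-15). Zfp36, which encodes the mRNA decay factor tristetraprolin, was at 40.2, 47.3 and 39.04 CPM and 67.7, 60.1 and 69.7 CPM (log2 fold change 0.64 ± 0.07 (SE), adjusted p = 2.26e-08). None of these 4 genes overlapped between groups.

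The other members that rose did so by less. Ier3, Ier2, Btg2, Dusp1 and Junb changed by 0.52, 0.47, 0.44, 0.42 and 0.40, and Nr4a1, Sik1, Dusp6, Per1 and Jun by 0.35, 0.34, 0.34, 0.20 and 0.18. Nr4a1 encodes an orphan nuclear receptor and was at 169, 173 and 178 CPM and 229, 208 and 225 CPM (log2 fold change 0.35 ± 0.05 (SE), adjusted p = 3.08e-07). Sik1, a kinase induced by cAMP, was at 269.8, 260.5 and 262 CPM and 338, 329.7 and 338 CPM (log2 fold change 0.34 ± 0.04 (SE), adjusted p = 6.64e-09). With JMJD1A(WT) both genes were lower than with LacZ, by 0.15 and 0.26 on the log2 scale (adjusted p = 0.0332 and 2.67e-06), whereas Egr1 was higher with either protein, by 0.68 with JMJD1A(WT) (adjusted p = 9.35e-14). The 2 members that fell, Spry4 and Dusp4, encode inhibitors of growth factor signalling through the ERK kinases. Their relatives in the list did not share the fall. Dusp1 and Dusp6 rose, and Dusp2, Dusp5 and Spry2 were not called (log2 fold changes of -0.71, 0.39 and 0.08). Spry4 was at 40.7, 42.98 and 39.04 CPM and 24.9, 23.3 and 25.7 CPM (log2 fold change -0.73 ± 0.08 (SE), adjusted p = 5.14e-09), and Dusp4 at 21.9, 20.4 and 21.2 CPM and 14.3, 15.6 and 14.99 CPM (log2 fold change -0.50 ± 0.11 (SE), adjusted p = 0.00122). The abundant members Jund and Fosl2 had log2 fold changes of 0.08 and 0.12 and were not called.

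**Figure D4:**
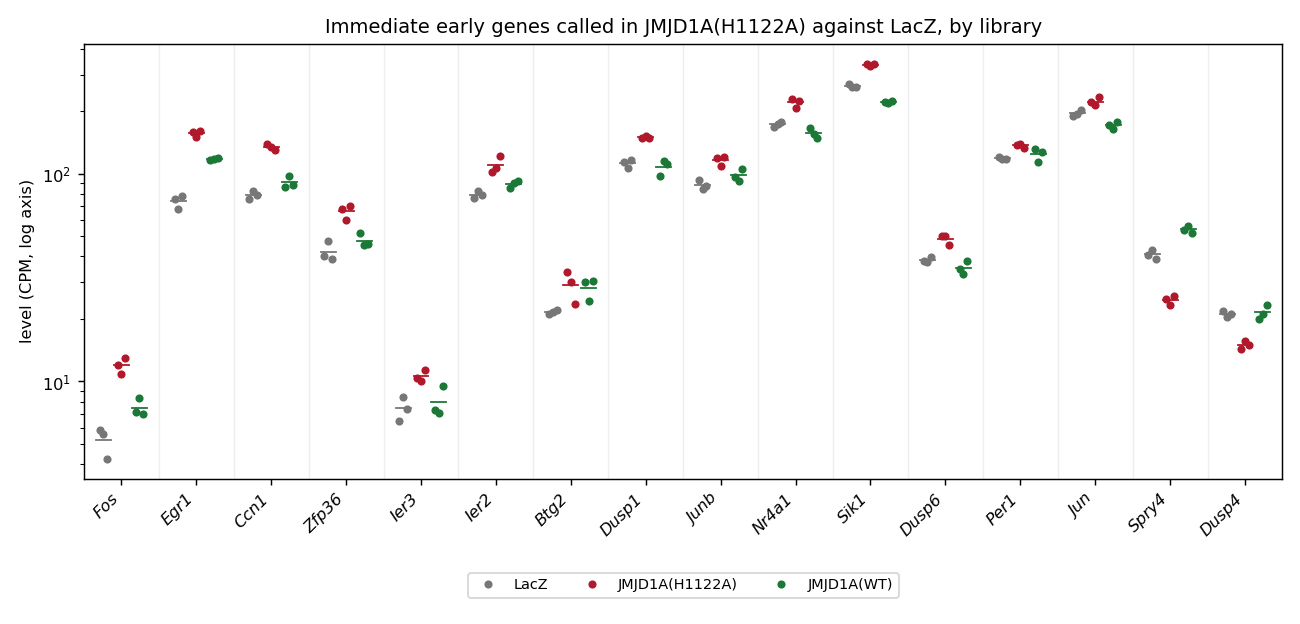
Levels (CPM, log axis) of the 16 immediate early genes called between JMJD1A(H1122A) and LacZ, by library and with a line at the group mean, in LacZ (grey), JMJD1A(H1122A) (red) and JMJD1A(WT) (green) cells. For the first 14 genes all red points lie above all grey points, and for Spry4 and Dusp4 below them.

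The upstream sequences of 3 of these genes are shown because each holds the letters TGACGT, the core of the cAMP response element, whose palindromic form is TGACGTCA. They are the 250 bases before the annotated start in RefSeq on GRCm38.p6, written 5′ to 3′ on the gene's own strand, with TGACGT on either strand in capitals. Fos is shown from chr12:85473640-85473889 (plus strand), Dusp1 from chr17:26508473-26508722 (minus strand) and Btg2 from chr1:134079156-134079405 (minus strand).
Fos: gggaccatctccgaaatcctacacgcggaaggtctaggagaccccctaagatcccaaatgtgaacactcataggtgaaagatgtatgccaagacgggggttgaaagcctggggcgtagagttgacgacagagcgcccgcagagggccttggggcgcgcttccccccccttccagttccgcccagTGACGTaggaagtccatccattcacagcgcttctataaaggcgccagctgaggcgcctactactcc
Dusp1: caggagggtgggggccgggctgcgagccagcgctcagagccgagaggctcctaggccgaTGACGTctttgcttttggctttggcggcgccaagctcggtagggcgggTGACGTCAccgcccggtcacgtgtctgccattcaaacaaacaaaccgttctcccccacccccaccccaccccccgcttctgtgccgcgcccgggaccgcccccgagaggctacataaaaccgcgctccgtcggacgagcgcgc
Btg2: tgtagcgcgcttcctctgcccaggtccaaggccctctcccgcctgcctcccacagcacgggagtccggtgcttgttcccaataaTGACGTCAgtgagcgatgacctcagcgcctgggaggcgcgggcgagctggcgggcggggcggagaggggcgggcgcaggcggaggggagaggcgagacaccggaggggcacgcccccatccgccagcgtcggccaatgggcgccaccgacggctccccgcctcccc
The motifs and genes were chosen after their values had been seen, and 9645 of the tested genes had an entry. TGACGT was found on either strand upstream of 11.9% of those genes and of 5 of the 11 immediate early genes called higher that had an entry, namely Fos, Dusp1, Btg2, Ccn1 and Per1. TGACGTCA, which contains it, was found upstream of 3.06% of all and of Dusp1 and Btg2 among these 11. TGANTCA, the AP-1 letters, was found upstream of 5.39% of all genes and of 0 of the 11, and the CArG box, the letters of SRF, upstream of 1.37% of all and of Zfp36 among the 11. Over all genes called higher, 54 of 480 with an entry (11.2%) held TGACGT. The letters TTGCNNAA, a core of C/EBP sites, were upstream of 8.82% of all genes and of 2 of 12 droplet and triglyceride genes called lower, Plin1 and Cidec. A match is only a description of the letters in this window.

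Genes induced by cAMP and by glucocorticoids, the signals of IBMX and dexamethasone, overlapped with the immediate early list. Of 23 tested cAMP-induced genes, 7 were higher (30.4%) and 0 were lower, with a median of 0.09, and 5 of the 7 were immediate early genes. Gem and Rgs2, a small GTPase and a regulator of G proteins, were the other two, at 0.19 and 0.14. Of 25 glucocorticoid-induced genes, 8 were higher (32.0%) and 2 were lower, with a median of 0.09. Fkbp5, a standard glucocorticoid target, was at 1184, 1163 and 1192 CPM and 1207, 1211 and 1211 CPM and was not called (adjusted p = 0.571). Tsc22d3, another such target, changed by 0.12 with overlapping groups and an adjusted p of 0.0413. Zbtb16, a transcription factor induced by dexamethasone, fell from 15.1, 15.1 and 12.7 CPM to 8.93, 7.14 and 6.68 CPM (log2 fold change -0.91 ± 0.14 (SE), adjusted p = 1.02e-05). The metallothioneins moved apart, Mt2 at -0.35 and Mt1 at 0.17.

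The insulin-like growth factor system held some of the largest falls. Its binding proteins hold IGFs in the medium, and the proteases PAPPA and PAPPA2 release them by cutting IGFBP4 and IGFBP5. Of 17 tested members, 5 were lower (29.4%) and 1 was higher, with a list median of -0.07. Igfbp4 was at 340.3, 347 and 343 CPM with LacZ and 161, 159.6 and 175 CPM with JMJD1A(H1122A) (log2 fold change -1.05 ± 0.04 (SE), adjusted p = 1.06e-23). Igfbp5 was at 59.6, 67.5 and 53.5 CPM and 24.4, 26.4 and 23.9 CPM (log2 fold change -1.27 ± 0.08 (SE), adjusted p = 2.46e-16). In both genes the groups stood well apart. Pappa2 was at 7.86, 8.36 and 6.79 CPM and 3.37, 3.13 and 4.37 CPM (log2 fold change -1.09 ± 0.21 (SE), adjusted p = 2.91e-04), and Pappa fell by 0.20 on the log2 scale from a mean of 104 CPM. The ligand gene Igf1 rose from 9.20, 5.66 and 8.34 CPM to 13.3, 10.9 and 12.4 CPM (log2 fold change 0.65 ± 0.15 (SE), adjusted p = 0.0038), and missed the threshold without LacZ replicate 2 (adjusted p = 0.0574). Irs2, an adaptor of the insulin and IGF receptors, changed by -0.20 (adjusted p = 0.038). The abundant members Igf2r and Igfbp7 were not called, at 0.03 and -0.07. Without JMJD1A(H1122A) replicate 3, 3 members were called lower.

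The 2 binding proteins resembled each other in the rescue set and differed in the knockdown set. With JMJD1A(WT), Igfbp4 was at 656 ± 19 (SD, n = 3) CPM and Igfbp5 at 118 ± 4.78 (SD, n = 3) CPM, 0.93 and 0.97 above LacZ on the log2 scale (adjusted p = 2.34e-23 and 9.10e-17). In sh-Jmjd1a against sh-Empty cells, Igfbp4 fell by 1.42 and Igfbp5 rose by 2.91 (adjusted p = 3.15e-20 and 8.88e-20). Pappa2, too, was lower with the mutant and higher upon knockdown, by 1.47 (adjusted p = 2.51e-06).

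Ren1, Agt and Agtr2, components of the renin-angiotensin system, also fell, a grouping made after the values were seen. Ren1 encodes renin, the protease that cuts angiotensinogen, and was at 107, 109 and 109.9 CPM with LacZ and 54.6, 48.8 and 47.9 CPM with JMJD1A(H1122A) (log2 fold change -1.11 ± 0.06 (SE), adjusted p = 2.86e-19). Its substrate gene Agt is given above, and Agtr2, a receptor of angiotensin II, was at 47.2, 49.9 and 48.4 CPM and 28.7, 28.1 and 28.02 CPM (log2 fold change -0.78 ± 0.08 (SE), adjusted p = 1.83e-10). JMJD1A(WT) cells held 464 ± 26.5 (SD, n = 3) CPM of Ren1, 2.09 above LacZ (adjusted p = 4.61e-34). Agtr2 was lower than LacZ with JMJD1A(WT) as well, by 0.50 on the log2 scale (adjusted p = 3.63e-07). Upon knockdown the 3 genes parted. Ren1 and Agt had log2 fold changes of -0.40 and -2.84, whereas Agtr2 rose by 1.24 (adjusted p = 1.04e-14). Some mouse strains carry a closely related second renin gene, whose reads could be assigned to Ren1.

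Matrix genes were called in both directions. Among 46 tested glycoproteins and proteoglycans, 7 were lower (15.2%) and 13 higher (28.3%), with a list median of -0.02, and among 23 collagen chains 5 were lower (21.7%) and 3 higher, with a list median of -0.05. Several genes of the basement membrane, the sheet on which adipocytes rest, were among those that fell. Col18a1, a basement membrane collagen, was at 392, 361 and 393 CPM with LacZ and 268, 259.8 and 268 CPM with the mutant (log2 fold change -0.53 ± 0.04 (SE), adjusted p = 2.24e-13). Nid2, the linker nidogen 2, was at 46.8, 44.5 and 49.3 CPM and 30.7, 30.98 and 30.5 CPM (log2 fold change -0.61 ± 0.08 (SE), adjusted p = 1.11e-07). The laminin chains Lama4, Lamb1 and Lamc1 and nidogen 1 (Nid1) changed by -0.23, -0.16, -0.15 and -0.13, whereas the laminin chain Lamb2 rose by 0.33. Col4a1, the main collagen of that membrane, was at 13820, 13200 and 13530 CPM and 13300, 12990 and 13230 CPM and was not called (adjusted p = 0.511). Col15a1 was scarce and only just past the threshold (adjusted p = 0.0445). Col5a3, Col6a3 and Col11a1 changed by -0.36, -0.19 and -0.15. Spp1, the secreted phosphoprotein osteopontin, fell from 203, 202 and 214 CPM to 132, 128 and 127 CPM (log2 fold change -0.68 ± 0.04 (SE), adjusted p = 4.71e-16), and Ecm1 by 0.17 on the log2 scale.

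Genes that crosslink or build interstitial matrix were among those that rose. Lox encodes lysyl oxidase, which crosslinks collagen and elastin, and was at 669.8, 648 and 663 CPM with LacZ and 955, 928 and 942 CPM with JMJD1A(H1122A) (log2 fold change 0.51 ± 0.03 (SE), adjusted p = 1.41e-15). Its relatives Loxl4 and Loxl3 rose by 0.54 and 0.34, and Ccn4, a matricellular protein of the CCN family, by 0.45. Col27a1, a fibrillar collagen, was at 147, 126 and 124 CPM and 190.1, 184 and 176 CPM (log2 fold change 0.47 ± 0.05 (SE), adjusted p = 2.48e-08). Col1a2, one of the most abundant transcripts, was at 7152, 6992 and 7119 CPM and 8295, 7802 and 7975 CPM, a shift of 0.18 ± 0.03 (SE) that stood clear of the replicate spread (adjusted p = 4.09e-05). Col5a2 was higher by 0.10, near the threshold (adjusted p = 0.0452), and Col3a1, Fn1 and Vcan, at similarly high levels, had log2 fold changes of -0.05, -0.01 and 0.03 and were not called. Without LacZ replicate 1, 3 collagen chains were lower and 5 higher. The sorting into basement membrane and interstitial genes was made after the values were seen.

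Proteases and their inhibitors moved in both directions. Of 32 tested metalloproteases and inhibitors, 5 were lower (15.6%) and 7 were higher (21.9%), and of 18 members of the plasminogen system and serpins 3 were lower (16.7%) and 4 higher (22.2%). Serpine2, an inhibitor of thrombin and of plasminogen activators, had the largest fall among the genes above 5 CPM, from 12.3, 11.97 and 14 CPM to 4.85, 4.37 and 5.14 CPM (log2 fold change -1.42 ± 0.16 (SE), adjusted p = 7.96e-09). Plat, a plasminogen activator, rose from 20.1, 25.1 and 21.9 CPM to 30.1, 32.7 and 29.1 CPM (log2 fold change 0.46 ± 0.09 (SE), adjusted p = 6.62e-04). Serpinf1, which encodes the antiangiogenic factor PEDF, rose by 0.23. Adamts15, a protease of proteoglycans, was at 13.9, 12.04 and 12.4 CPM and 5.87, 4.74 and 4.03 CPM (log2 fold change -1.39 ± 0.17 (SE), adjusted p = 4.03e-08). With JMJD1A(WT) it was at 41.2 ± 4.88 (SD, n = 3) CPM, 1.66 above LacZ (adjusted p = 3.03e-17).

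Mmp2, the gelatinase A and the most abundant protease gene of the list, was at 4819, 4746 and 4804 CPM with LacZ and 6192, 6108 and 6022 CPM with the mutant (log2 fold change 0.35 ± 0.03 (SE), adjusted p = 1.94e-12). Mmp14, the membrane protease that activates MMP2, was at 594, 590.3 and 575 CPM and 682, 690.3 and 687 CPM (log2 fold change 0.23 ± 0.03 (SE), adjusted p = 5.77e-06). Both were lower than LacZ with JMJD1A(WT), by 0.28 and 0.32 on the log2 scale (adjusted p = 4.27e-10 and 2.20e-09). The inhibitor gene Timp3 fell from 24.7, 25.1 and 22.9 CPM to 17.2, 14 and 15.7 CPM (log2 fold change -0.64 ± 0.10 (SE), adjusted p = 2.37e-05), whereas Timp2 was at 858, 932 and 926 CPM and 919, 952 and 919 CPM and was not called. Adamts2, which trims procollagen, and Adam12 changed by -0.55 and -0.46, and Adamtsl4, Adamts4 and Mmp11 by 0.31, 0.29 and 0.28. Without JMJD1A(H1122A) replicate 1, 3 members of the metalloprotease list were called higher.

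**Figure D5:**
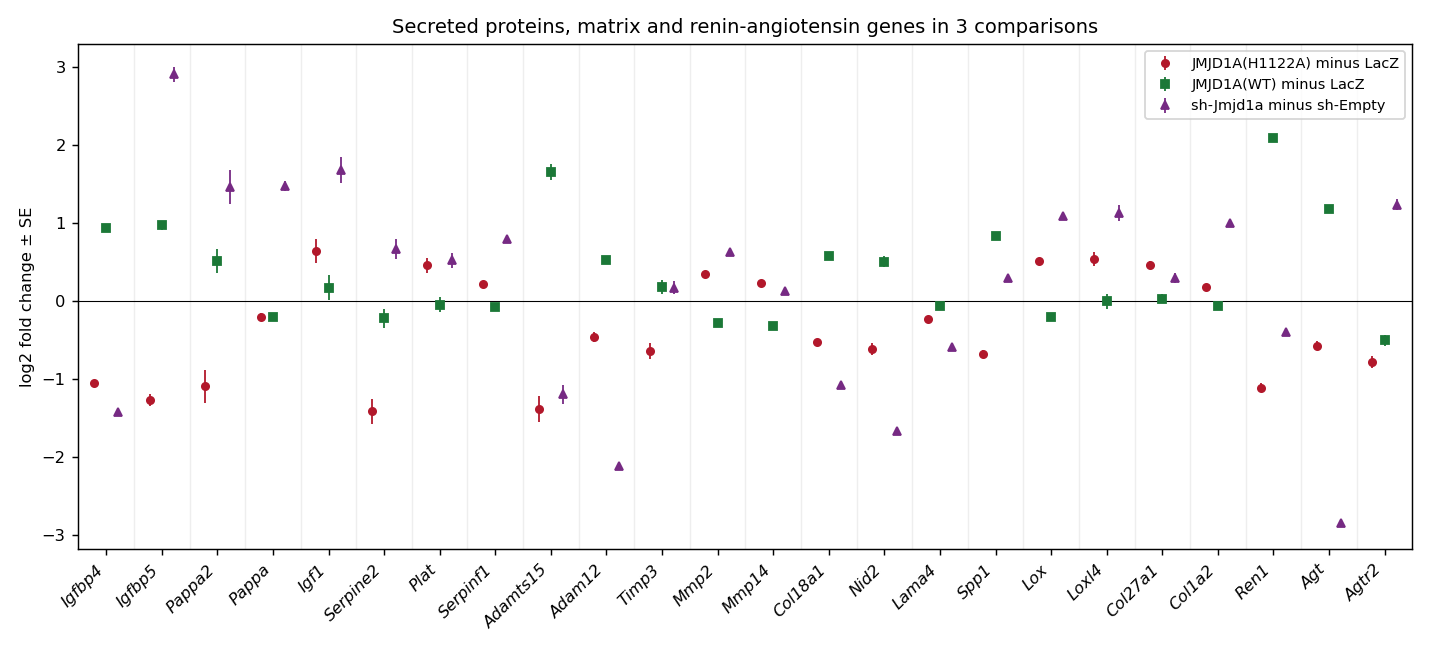
Log2 fold change ± SE for 24 genes of secreted proteins, matrix and the renin-angiotensin system in JMJD1A(H1122A) minus LacZ (red), JMJD1A(WT) minus LacZ (green) and sh-Jmjd1a minus sh-Empty (purple). The red and green values share the LacZ libraries. Ren1 is at -1.11 and 2.09 in the first 2 comparisons, and Igfbp5 is at -1.27 with the mutant and 2.91 upon knockdown.

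Most preadipocyte and fibroblast markers were not called. Of 25 tested members, 5 were higher (beside 4.78% of all genes) and 1 was lower (beside 4.46%), with a list median of 0.10. Thy1, a surface protein of fibroblasts, was at 147, 151 and 147 CPM and 189, 179 and 179 CPM (log2 fold change 0.30 ± 0.05 (SE), adjusted p = 1.65e-05). Pdgfrb, a receptor of mural cells and preadipocytes, rose by 0.30, the transcription factor gene Twist2 by 0.25 and the intermediate filament gene Vim by 0.14. S100a4 was just past the threshold at 0.13 (adjusted p = 0.0462), and Pdgfra just outside it at 0.10 (adjusted p = 0.0531). Dlk1, the preadipocyte factor that is lost as fat cells mature, was the exception, from 569, 551 and 550.2 CPM with LacZ down to 377, 376 and 406 CPM with JMJD1A(H1122A) (log2 fold change -0.53 ± 0.04 (SE), adjusted p = 5.87e-15). It was higher with JMJD1A(WT), at 752 ± 14.6 (SD, n = 3) CPM (0.43, adjusted p = 6.90e-13), and lower upon knockdown, by 0.76 on the log2 scale.

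Signalling lists differed in their counts. Of 38 members of the TGF-β and BMP pathway, 7 were higher (18.4%) and 3 lower. Id2 and Id3, targets of BMP signals that block bHLH factors, rose by 0.56 and 0.47. Ltbp1, which stores TGF-β in the matrix, was at 87.97, 89.8 and 90.02 CPM and 128, 122 and 117 CPM (log2 fold change 0.45 ± 0.05 (SE), adjusted p = 7.96e-09). The receptor gene Tgfbr1 fell from 88.7, 91.5 and 90.02 CPM to 65.1, 63.4 and 64 CPM (log2 fold change -0.49 ± 0.06 (SE), adjusted p = 1.32e-08), as did the BMP antagonist Grem1, by 0.56 on the log2 scale. Gdf5 was called higher from under 2 CPM in each library. Of 26 members of the Wnt pathway only Wnt4 was called, at -0.70 (adjusted p = 0.00298). Of 33 actin, SRF and YAP genes, 7 were higher (21.2%) and 1 lower, with 4 higher without JMJD1A(H1122A) replicate 1 or LacZ replicate 2. Zyx, the focal adhesion protein zyxin, was at 267, 274 and 266 CPM and 314, 313 and 327 CPM (log2 fold change 0.24 ± 0.04 (SE), adjusted p = 3.23e-05), and Filip1l and Tes rose by 0.31 and 0.28. Among growth factors and receptors, 3 of 26 were higher (11.5%, beside 4.78% of all genes) and 1 was lower (3.85%, beside 4.46%). Vegfd, a lymphatic growth factor, rose by 0.42, and Met, the receptor of hepatocyte growth factor, fell by 0.31 on the log2 scale.

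Lists tied to the biochemistry of JMJD1A itself held 1 to 3 called genes in a direction. Of 25 genes of iron uptake, storage and sensing, 3 were lower (12%, beside 4.46% of all genes) and 0 were higher. Tfrc, the transferrin receptor whose mRNA is stabilised when iron is low, was at 152, 161 and 155 CPM and 136, 129.7 and 138 CPM (log2 fold change -0.21 ± 0.05 (SE), adjusted p = 0.0012). Heph, a ferroxidase, and Fbxl5, an iron sensor, changed by -0.51 and -0.25. Aco1, the iron regulatory protein and cytosolic aconitase, was at 166, 149 and 153 CPM and 153, 145 and 139 CPM and was not called (adjusted p = 0.254). Of 28 H3K9 methyltransferases, demethylases and HP1 proteins, 1 was lower and 1 higher (3.57% each). Cbx5, which encodes HP1α, was at 390.5, 367 and 361 CPM and 325, 336 and 304 CPM (log2 fold change -0.21 ± 0.04 (SE), adjusted p = 2.93e-04). Setdb1, an H3K9 methyltransferase, was at 197, 188 and 192 CPM and 222, 223 and 214 CPM (log2 fold change 0.19 ± 0.04 (SE), adjusted p = 0.00154), and was at 128 ± 1.71 (SD, n = 3) CPM with JMJD1A(WT), 0.59 on the log2 scale lower than LacZ (adjusted p = 1.02e-14). Of 44 other iron and 2-oxoglutarate dependent dioxygenases, 3 were higher (6.82%, beside 4.78% of all genes) and 0 lower. They were the collagen hydroxylases P4ha2 and Plod1 at 0.23 and 0.15 and the lysyl hydroxylase Jmjd7 at 0.66. Jmjd7 was scarce, at means of 4.46 CPM with LacZ and 7.04 CPM with the mutant. It was not called by DESeq2 (adjusted p = 0.0667) or without LacZ replicate 1 (adjusted p = 0.165).

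Stress and proliferation lists differed in their shares of called genes, a difference that was not tested. Of 38 antioxidant genes, 6 were higher (15.8%, beside 4.78% of all genes) and 3 lower, with at fewest 3 higher when single libraries were left out. Nqo1, a quinone reductase and standard NRF2 target, was at 60.1, 64.8 and 56.01 CPM and 81.3, 80.3 and 88.8 CPM (log2 fold change 0.47 ± 0.06 (SE), adjusted p = 4.62e-07), the glutathione transferases Gstm1 and Gsta4 rose by 0.45 and 0.39, and Sod2, the mitochondrial superoxide dismutase, fell by 0.37 on the log2 scale. Gstm1 belongs to a family of near-identical genes, and its reads may be shared. Among 43 mitosis genes 2 were higher (4.65%) and 1 was lower (2.33%), and among 46 genes of DNA replication 1 moved each way (2.17% each). Pcna, the sliding clamp of replication, was at 227, 235 and 237 CPM and 292, 317 and 287 CPM (log2 fold change 0.36 ± 0.04 (SE), adjusted p = 3.46e-08), while Rrm2, a subunit of ribonucleotide reductase, fell by 0.24 on the log2 scale. Of 38 interferon-stimulated genes, 1 was lower and 1 higher (2.63% each), the latter B2m at 0.17. Of 39 hypoxia and glycolysis genes, 5 were higher (12.8%) and 3 lower, with at fewest 2 and 1 when single libraries were left out. Ndrg1, a gene induced by hypoxia and in differentiating cells, was at 15.8, 15.9 and 16.1 CPM and 28.1, 26.2 and 25.2 CPM (log2 fold change 0.74 ± 0.10 (SE), adjusted p = 6.30e-07).

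Some of the largest changes lay outside these lists. Wfdc3, which encodes a small protein with a WAP domain, rose from 7.20, 9.42 and 7.42 CPM to 19.2, 18.1 and 19.4 CPM (log2 fold change 1.24 ± 0.14 (SE), adjusted p = 6.31e-09) and was at 7.13 ± 1.79 (SD, n = 3) CPM with JMJD1A(WT). Apod, an abundant secreted lipocalin, was at 172, 203 and 188 CPM with LacZ and 328, 339 and 334 CPM with JMJD1A(H1122A) (log2 fold change 0.83 ± 0.05 (SE), adjusted p = 2.39e-18), and JMJD1A(WT) raised it too, by 0.33 (adjusted p = 3.92e-07). Gdpd2, a glycerophosphodiester phosphodiesterase, was at 14.5, 15.2 and 11.8 CPM and 25.6, 25.6 and 23.9 CPM (log2 fold change 0.86 ± 0.11 (SE), adjusted p = 1.48e-07). Mdga1, a glycoprotein anchored to the membrane, rose by 0.71, and Epb41l4b, Srpx2, Gpr162 and Zscan2 by 0.69, 0.68, 0.67 and 0.69. Gpr162 and Zscan2 were scarce, at means of 5.15 and 3.92 CPM with LacZ. Neither was called without LacZ replicate 3 (adjusted p = 0.092 and 0.067). Sis, the intestinal disaccharidase sucrase-isomaltase, fell from 13.7, 13.9 and 13.9 CPM to 5.56, 5.54 and 6.43 CPM (log2 fold change -1.25 ± 0.15 (SE), adjusted p = 3.71e-08) and did not differ detectably between JMJD1A(WT) and LacZ (log2 fold change -0.01, adjusted p = 0.973). Alpl, an alkaline phosphatase, fell by 0.90 on the log2 scale.

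Several genes moved in opposite directions with the 2 JMJD1A proteins. Where a gene was called in both comparisons with LacZ and in the direct comparison of the proteins, the clearest cases with the mutant lower were Igfbp4, Ren1, Fabp4, Cebpa and Igfbp5, given above. With the mutant higher they were Mmp2, Cst3, Antxr1, Rasa3 and Fam107a. Cst3, the secreted protease inhibitor cystatin C, was at 552, 540.5 and 550.3 CPM with LacZ, 716, 672 and 699.9 CPM with JMJD1A(H1122A) and 432 ± 11.7 (SD, n = 3) CPM with JMJD1A(WT). Its 2 log2 fold changes against LacZ were 0.35 and -0.34. Antxr1, a receptor for collagen and for anthrax toxin, had values of 0.41 and -0.41, Rasa3, a GTPase-activating protein for RAS, of 0.31 and -0.31, and Fam107a, an actin-binding protein induced by glucocorticoids, of 0.36 and -0.45. All 4 differed between the 2 proteins, with adjusted p-values of 5.27e-20, 3.26e-18, 5.27e-18 and 2.68e-19 in that order. Both comparisons with LacZ use the same 3 LacZ libraries. The direct comparison reuses the libraries of both proteins, and the LacZ libraries entered its estimate of the spread. Genes picked for opposite calls against LacZ must lie apart between the proteins, so these p-values add no separate support.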

How the data were processed

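RNA-seq was done on day 2 of 3T3-L1 differentiation. Per the labels and methods, the authors ran fastp for trimming, HISAT2 for alignment (genome build mm9) and featureCounts for the gene table, and raw counts by Entrez Gene number were deposited without normalization. The strand setting of the counting is not given in the sources used here, so reads of genes that overlap on opposite strands may be shared. Counts of the 6 libraries were joined with the other 9. Of 26301 gene numbers, 24191 had a symbol in the RefSeq gene table.

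The LacZ, JMJD1A(H1122A) and JMJD1A(WT) libraries were fitted together with edgeR 4.0.16 in R 4.3.3 (TMM, filterByExpr with a minimum count of 10, robust quasi-likelihood F test of edgeR 4), and the knockdown set was fitted apart. P-values were adjusted over all tested genes by the method of Benjamini and Hochberg, and calls were made under 0.05. The SE is the log2 fold change divided by the square root of F. CPM values use TMM library sizes. The fit was checked on simulated counts. Replicates of one group differed by a chi-square of 2.37 to 4.40 per degree of freedom, and none was a copy of another.

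The gene lists and the rule for named genes were chosen with earlier results of these data known, so no list was tested. The rule took Kdm3a, the 12 largest falls and rises above 5 CPM without overlap, up to 4 called members per direction and 2 others per list, genes named by the study, and 5 genes per direction called oppositely with JMJD1A(WT). Other members of a list were named after their values were seen. Alternatives were RLE size factors, DESeq2 1.42.0, 2 filters, 2 other sets of libraries, the legacy method, thinning, a threshold of 0.01, a replicate block and the omission of single libraries. Values of some list members are not reported here. Chromatin data of the study were not analysed here.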

Additional observations from a re-analysis of the deposited data

How the results depend on the processing

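At an adjusted p under 0.01, 278 genes were lower and 298 higher. Leaving out 1 library gave 326 to 497 lower and 348 to 549 higher genes. The other alternatives kept both counts within 1.5 times, and in none of the 16 alternatives was a gene of the 1160 called in the opposite direction. DESeq2 gave 473 lower and 476 higher. With the replicate number as a block, 682 genes were lower and 731 higher, but the numbers did not pair the libraries: the deviations of same-numbered libraries had correlations of 0.0541, 0.0222 and -0.00642. Of 176 called genes followed individually, 118 were called in every alternative, of 16, in which they were tested and 58 lost the call without at least 1 library. Dgat1 and Elovl6 were among those that lost it without any 1 of the 6. Rrm2, Fbxl5, Ncapg2, Sqle, Cyp51, Alpl, Adamts4, Adamtsl4 and Btg2 lost it without JMJD1A(H1122A) replicate 1, Ecm1, Ppargc1b, B2m and Gdf5 without replicate 2, and Nid1, Pappa, Met, B2m and Twist2 without replicate 3. Nid1, Lamc1 and Met lost it without LacZ replicate 1, Rrm2, Adamts4 and Igf1 without LacZ replicate 2, and Gsr and Rgs2 without LacZ replicate 3. Another 32 lost it in 3 to 5 of these 6 settings, among them Fads3, Col15a1, Col5a2, Etfb, Heph, Ier3, Irs2 and Metrnl. Casp1, Gpr162, Jmjd7 and Zscan2 were among them too. For 5 of the 32 genes followed that were not called, the log2 fold change turned sign. It ran from -0.01965 to 0.04687 for Srebf1, -0.06196 to 0.02446 for Nampt, -0.003692 to 0.07169 for Igf2r, -0.02631 to 0.03413 for Fn1 and -0.02339 to 0.0353 for Gusb with 1 library left out, and was 0.00299 for Gusb in the fit of all 15 libraries. The 27 others kept their sign. Another 5 of the 32 were called in 1 to 5 alternatives: Pdgfra higher in 5, Cebpd and Fasn higher in 3 each (no filter, replicate block and 1 library left out), Srp54b higher in 2 and Cebpb lower in 1. The cause was not tested. Precision was lowest for genes of a few CPM.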

Other observations

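Several further genes were not called between JMJD1A(H1122A) and LacZ. Acat2, which makes acetoacetyl-CoA, was at 66.5, 63.8 and 69.5 CPM with LacZ and 65.5, 62.1 and 64.5 CPM with the mutant (adjusted p = 0.659). Zfpm2, a cofactor of GATA factors, was at 25.6, 26.7 and 28.5 CPM and 27.1, 30.04 and 31.9 CPM (adjusted p = 0.394). Adig, an adipocyte membrane protein, stayed under 1 CPM in each of the 6 libraries. The housekeeping gene Gusb was at 83.1, 81.9 and 88.9 CPM and 84.6, 83.5 and 85.7 CPM (adjusted p = 0.99), and Nampt, an enzyme of NAD synthesis, at 176, 194 and 172 CPM and 180.2, 179 and 170.4 CPM (adjusted p = 0.779). Bbs2 and Clip3, which encode a ciliary and a microtubule-binding protein, rose by 0.28 and 0.31 on the log2 scale (adjusted p = 0.0348 and 0.00103).

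Amino acid enzymes moved in both directions. Of 38 genes of the unfolded protein and amino acid stress response, 6 were lower (15.8%) and 4 higher (10.5%). Among all genes, 4.46% were lower and 4.78% higher. With single libraries left out, 4 to 6 members of the list were lower and 1 to 4 higher. Psat1 and Cth, enzymes of serine and cysteine synthesis, fell by 0.30 and 0.34, and Mthfd2, a mitochondrial folate enzyme, rose by 0.20. The inflammatory caspase genes Casp4 and Casp1 rose, Casp4 from 56.4, 53.95 and 55.8 CPM to 70, 76.5 and 75.5 CPM (adjusted p = 3.16e-06). Casp4 was at 31.1 ± 1.17 (SD, n = 3) CPM with JMJD1A(WT). Casp1 was scarce, at means of 1.68 CPM with LacZ and 3.36 CPM with the mutant. It was not called without LacZ replicate 2 (adjusted p = 0.113). Of 35 chemokine, cytokine and inflammatory genes, Casp4, Casp1 and the growth factor gene Csf1 were the 3 called, all higher (8.57%). With single libraries left out, 1 to 3 members of this list were higher and 0 to 1 lower. Of 16 circadian clock genes, 2 were higher and 2 lower (12.5% each), with 1 to 2 in each direction when single libraries were left out.

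One gene showed a very uneven spread within the mutant group. Srp54b, one of a set of near-identical copies between which reads may be shared, was at 0.533, 0.92 and 0.707 CPM with LacZ and 18.2, 11.7 and 0.428 CPM with JMJD1A(H1122A). Its log2 fold change of 3.84 was not called (adjusted p = 0.173), but was called without JMJD1A(H1122A) replicate 3 and by DESeq2 (adjusted p = 0.0369 and 0.0219), and it was picked out after its values were seen.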
